A study of Mus musculus with 8 samples.

Results

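The transcripts described here encode the enzymes, sensors and transporters of cholesterol synthesis and turnover. The list held 30 genes out of 55416 in the count table, and each was found by its gene symbol. Of these, 7 act in the mevalonate arm and 3 from squalene synthesis to lanosterol. Another 8 act between lanosterol and cholesterol, 6 in sterol sensing and transport, and 6 in turnover and efflux. They were measured by stranded mRNA sequencing of the cerebral cortex of mice, in 4 libraries from animals with 1 knock-in Ago2 allele carrying the L192P substitution (AGO2_L192P/+, called L192P) and 4 from wild-type animals (WT). Argonaute 2, the product of Ago2, binds miRNAs and with them represses mRNAs that carry matching sites. The allele was made by genome editing in mouse embryos and kept by breeding heterozygotes with wild-type mice, so every cell type of the L192P cortex carried 1 mutant and 1 wild-type allele. The age and sex of the animals are not given in the sources used here, and neither is what the replicate numbers stand for. Nothing in the labels says that the 4 libraries of a genotype came from separate animals. The p-values therefore measure the spread between these libraries, part of which may be technical.

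Cholesterol does not cross the blood-brain barrier to any useful extent, so the brain makes its own, first from acetyl-CoA to isoprenoids and squalene and then through a chain of sterol intermediates. Transcription of most of these enzymes is driven by sterol regulatory element-binding proteins, which the INSIG proteins and SCAP hold back or release with the sterol content of the endoplasmic reticulum. Oligodendrocytes use much of the product for myelin, astrocytes supply neurons, and neurons remove the excess as a hydroxylated sterol that can leave the brain.

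The L192P and WT cortex did not differ detectably in these transcripts. In the DESeq2 comparison of L192P with WT, 0 of the 30 genes had an adjusted p under 0.05, where 253 of 18627 tested genes (1.36%) had one. The estimated changes were small: log2 fold changes (L192P over WT, without shrinkage) ran from -0.19 for Mvk to 0.15 for Abca1, with a median of -0.010 against 0.0019 over all tested genes. There were 13 genes above 0 and 17 below 0. For 22 of the 30 genes the 95% interval lay within a 1.25-fold change in either direction, as it did for 43.5% of all tested genes, and for 29 it lay within 1.5-fold (all tested genes, 64.6%). The exception was Fdps, a gene with few counts here.

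**Figure D1:**
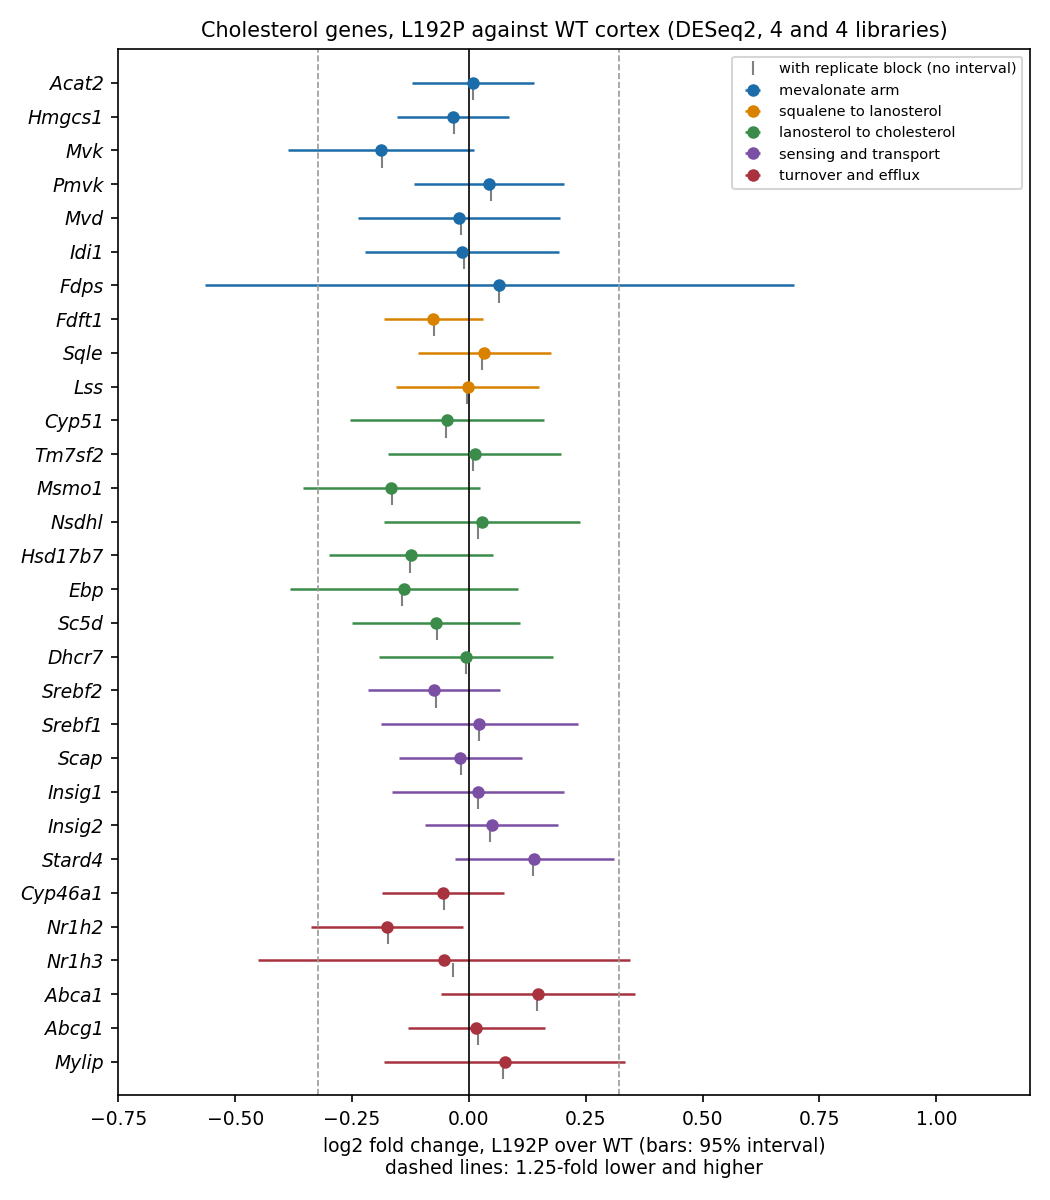
Log2 fold change of each of the 30 cholesterol genes, L192P over WT, from DESeq2 (points, coloured by role) with its 95% interval (bars) and the estimate with the replicate number as a block (grey ticks). Dashed lines mark 1.25-fold in either direction, and the interval of Nr1h2 is the one that leaves out 0.

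Sterols act on these genes mainly through their promoters and miRNAs through their 3′ UTRs, so a few sequences of both kinds are shown, for a synthesis gene and an efflux gene. The letters TCACNCCAC, 1 form of the sterol regulatory element, were searched on both strands of the RefSeq promoter table (GRCm38.p6). Each promoter there covers 250 bases before and 50 after the start site. Among the 25 genes of the list with a promoter in the table, only Hmgcs1, the cytosolic HMG-CoA synthase, held these letters. This was 4% of the 25 genes, against 1.44% of all 27025 genes in the table. Other spellings of the element were not searched, so they were not counted. The CCAAT box, searched as ATTGG on both strands, was in 20 of the 25 (80%, all genes 41.1%), and the E-box CACGTG was in 6 (24%, all genes 8.09%). The cholesterol promoters were richer in G and C, with a median of 62.5% against 52.7% for all promoters. The promoters of Fdps, Fdft1, Sqle, Stard4 and Abcg1 were not analysed here. The 250 bases before the start site are printed below for Hmgcs1 (GRCm38.p6, chr13:119690101-119690350, plus strand) and for Abca1, a lipid exporter (GRCm38.p6, chr4:53159896-53160145, minus strand), with each of these motifs in capitals. In Hmgcs1 they mark 1 sterol regulatory element and 3 CCAAT boxes, and in Abca1 they mark 1 E-box.
Hmgcs1: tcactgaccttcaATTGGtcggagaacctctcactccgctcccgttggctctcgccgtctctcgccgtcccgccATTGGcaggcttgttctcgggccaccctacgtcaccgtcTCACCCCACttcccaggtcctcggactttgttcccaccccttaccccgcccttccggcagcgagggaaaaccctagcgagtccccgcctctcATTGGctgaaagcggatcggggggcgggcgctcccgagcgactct
Abca1: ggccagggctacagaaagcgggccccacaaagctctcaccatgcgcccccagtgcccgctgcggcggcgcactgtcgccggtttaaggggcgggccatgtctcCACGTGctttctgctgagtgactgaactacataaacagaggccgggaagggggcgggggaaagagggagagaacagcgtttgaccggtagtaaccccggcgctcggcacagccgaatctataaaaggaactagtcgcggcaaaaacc

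The miRNA miR-33-5p is encoded in an intron of Srebf2, the gene of the main regulator of cholesterol synthesis, and is known to act on Abca1. It is shown because Argonaute 2 is the protein changed in the L192P mice and this miRNA sits inside a gene of the list. Its mature sequence (RefSeq, GRCm38.p6, chr15:82198127-82198147, plus strand) is printed with its seed, bases 2 to 8, in capitals, together with a window of 30 bases of the Abca1 3′ UTR (GRCm39, chr4:53033783-53033812, minus strand). The capitals in the window are 3 matches to the seed, of which the first pair overlaps by 2 bases.
miR-33-5p: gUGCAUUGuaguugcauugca
Abca1 window: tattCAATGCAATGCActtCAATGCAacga

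A match to this seed (CAATGCA in the DNA letters of the 3′ UTR of the canonical transcript) was found in 5 of the 30 genes (16.7%, against 8.70% of 14891 tested genes with an annotated 3′ UTR). Abca1 had 3, Abcg1 had 2, and Cyp51, Lss and Nsdhl had 1 each. The 5 genes lay on both sides of 0, with log2 fold changes of 0.15 for Abca1, 0.016 for Abcg1, -0.046 for Cyp51, -0.0029 for Lss and 0.028 for Nsdhl, and none of them was called. A match is a string of letters and not a measured binding site, and the level of miR-33-5p was not measured in these libraries.

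The libraries held between 20396357 and 43575900 counts, WT replicate 2 being the deepest, and each of the 30 genes was given an adjusted p. Apart from Fdps (18 to 49 raw counts per library) and Nr1h3 (46 to 132), each of the 30 genes had at least 304 raw counts in every library. The mean for Ago2 itself was 2291 ± 75.1 normalized counts in L192P against 2246 ± 130.4 in WT (SD of 4 libraries each, as for every ± value below), with an adjusted p of 0.968 by DESeq2. The cortical excitatory markers Slc17a7, Tbr1 and Neurod6 were present in every library. Replicate 1 of each genotype stood apart from the other 3 libraries: it had almost no Xist (0.934 normalized counts in L192P and 1.82 in WT), where the other 6 libraries had between 5185 and 7257. Xist is transcribed in female and not in male cells, so replicate 1 of each genotype was not from the same animal as the other 3. The part of sex in the other differences of replicate 1 was not tested. Because replicate 1 stood apart, the calls were also made without it in both genotypes. The cortex is a mixture of cells, and fewer cells of a type cannot be told apart from less RNA per cell.

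Per kb of annotated exon, over all 8 libraries, the most abundant of the 30 transcripts were those of Cyp46a1 (1297 normalized counts per kb), the neuronal enzyme that hydroxylates cholesterol for export, and Hmgcs1 (1229). Srebf2 (566.1) and Fdft1 (539.5) came next, followed by Insig1 (392.8) and Nr1h2 (343.7). At the bottom stood Fdps (5.38), Nr1h3 (14.1), Mvk (45.1), Abca1 (49.9) and Lss (58.7). Cyp46a1 and Hmgcs1 overlapped in their ranges over libraries, as did Srebf2 and Fdft1. These levels depend on the length used: over the canonical transcript, Cyp46a1 (2376) and Hmgcs1 (1581) stayed first, but Pmvk, at 837.7 per kb, came between Srebf2 (1042) and Fdft1 (742.4).

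**Figure D2:**
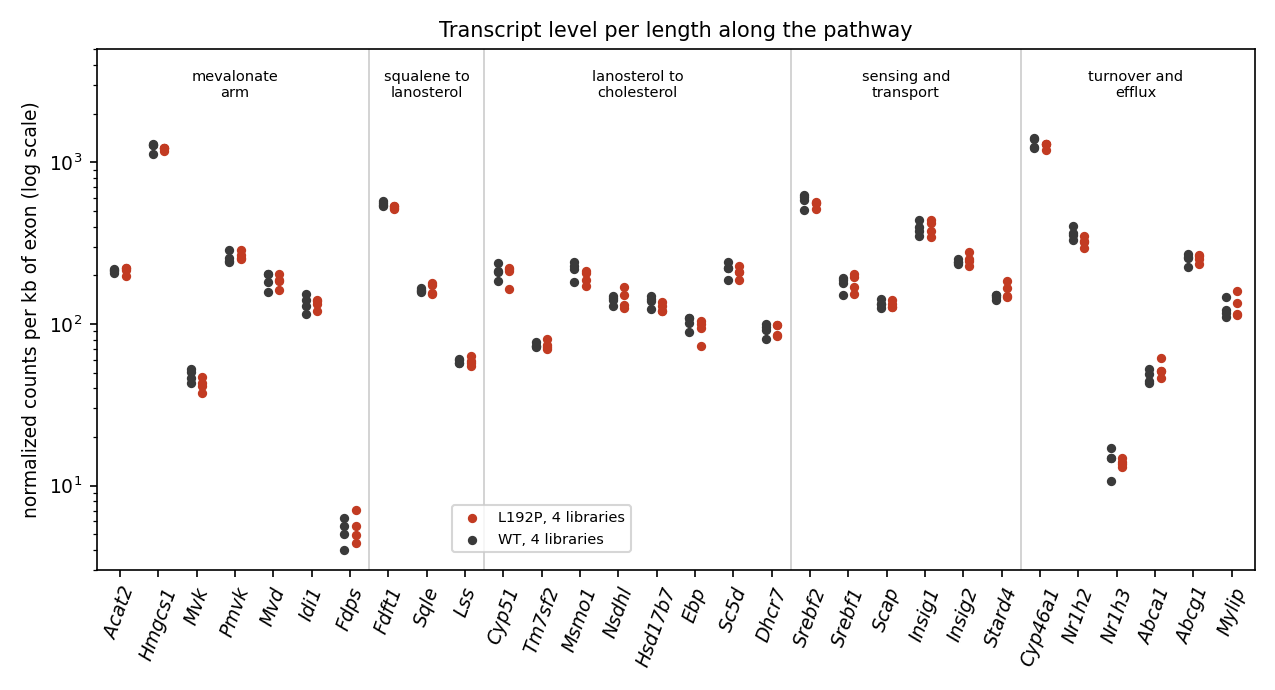
Normalized counts per kb of exon (log scale) of each of the 30 genes along the pathway, with 1 point per library (4 L192P and 4 WT). The levels of the genes spread from a mean of 5.38 per kb for Fdps to 1297 per kb for Cyp46a1, and the points of both genotypes overlap for every gene but Fdft1.

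In the mevalonate arm, 0 of 7 genes were called, and the median log2 fold change was -0.015. Acat2, the thiolase that joins acetyl-CoA units at the start of the pathway, had 1258 ± 65.2 normalized counts in L192P and 1249 ± 31.8 in WT, a difference of 0.578% with a 95% interval from -8.09% to 10.1%. Hmgcs1, the next enzyme, had 6214, 6436, 6457 and 6492 normalized counts in L192P replicates 1 to 4 and 5895, 6816, 6776 and 6728 in WT. In WT, replicate 1 lay well under the other 3, all of which lay above every L192P library. The difference was -2.36% (interval -10.1% to 6.07%), and without replicate 1 of both genotypes the log2 fold change was -0.07 (DESeq2 adjusted p = 0.638). Mvk (GRCm39, chr5:114582267-114601803, plus strand), mevalonate kinase, had the lowest estimate of the 30. Its values were 457.8, 481.4, 522.3 and 419.3 in L192P and 512.7, 584.1, 562.7 and 478.8 in WT. Each L192P library lay below the WT library of the same number, but the groups overlapped. The difference was -12.3% (interval -23.6% to 0.702%), with an adjusted p of 0.567 by DESeq2. Pmvk, the next kinase of the arm, had 1017 ± 62.0 in L192P and 983.9 ± 77.8 in WT (3.06%, interval -7.80% to 15.2%). Mvd, the decarboxylase that makes isopentenyl diphosphate, had 502.7 ± 46.5 and 508.9 ± 61.2 (-1.44%, interval -15.2% to 14.5%). Idi1, the isomerase of that product, had 471.0 ± 31.4 and 477.1 ± 57.6 (-1.02%, interval -14.3% to 14.3%).

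Fdps, which makes farnesyl diphosphate, was listed at far fewer counts than the enzymes on either side of it. Its normalized counts were 34.6, 27.3, 24.2 and 21.6 in L192P and 31.0, 27.7, 19.6 and 24.6 in WT, so the groups overlapped throughout. The interval of its difference ran from -32.4% to 61.9%, and a change within that range was not detectable at this depth. Its canonical transcript matched 5 pseudogenes at 95% identity or more over at least 100 bases, and 4 of them (Gm3571, Gm5873, Gm8163 and Gm7979) covered between 78.6% and 81.3% of it. Reads that fit several of these loci may have been left out or split by the counting, so the level of Fdps given here is uncertain, and the part this has in its low count was not tested. Smaller shares of other genes of the list had such near copies: 55.4% of the transcript of Acat2 matched Acat3 at 97.7% identity, 35.9% of Fdft1 matched the pseudogene Gm6781, and 26.4% and 26.3% of Idi1 matched Idi1-ps1 and Idi1-ps2. Their counts carry the same uncertainty.

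From squalene synthesis to lanosterol, 0 of 3 genes were called. Fdft1 (GRCm39, chr14:63382189-63417027, minus strand), squalene synthase, was the one gene of the 30 whose groups did not overlap, where 5.97% of all tested genes had groups that lay apart in one direction or the other. It had 2560, 2546, 2462 and 2477 normalized counts in L192P and 2595, 2759, 2569 and 2660 in WT, so that the highest L192P library lay just under the lowest WT library. The difference was small, -5.14% (interval -11.8% to 2.05%), and the adjusted p was 0.758 by DESeq2. About 24.8% of its exon bases overlap exons of Ctsb on the opposite strand, and whether the counting used strand is not given in the sources used here. Sqle, squalene monooxygenase, had 1469 ± 118.2 in L192P and 1436 ± 39.8 in WT (2.28%, interval -7.33% to 12.9%). Lss, which closes the sterol ring system, had 666.4 ± 38.2 and 667.2 ± 19.2 (-0.197%, interval -10.2% to 11.0%).

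Between lanosterol and cholesterol, 0 of 8 genes were called. The estimates of 6 lay below 0, and the median log2 fold change was -0.058. Msmo1 (GRCm39, chr8:65170603-65186830, minus strand), the methylsterol monooxygenase that removes methyl groups from the sterol nucleus, had 1518, 1672, 1890 and 1834 normalized counts in L192P and 1625, 2035, 1951 and 2141 in WT. Every L192P library lay below the WT library of its number, and the groups overlapped because WT replicate 1 was low. The difference was -10.8% (interval -21.8% to 1.71%), with an adjusted p of 0.640. With the replicate number as a block, the adjusted p of Msmo1 was 0.157 by DESeq2. Leaving out WT replicate 1 gave a log2 fold change of -0.24 and an adjusted p of 0.0959, the lowest of any of the 30 genes under any of 14 alternative settings.

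Hsd17b7, a ketosteroid reductase of the same stretch, had 701.6, 614.5, 612.2 and 657.6 in L192P and 733.9, 631.5, 706.1 and 756.3 in WT (-8.22%, interval -18.7% to 3.58%). Ebp, a sterol isomerase, had 296.2, 425.6, 409.3 and 385.7 in L192P and 365.2, 443.4, 411.7 and 446.0 in WT (-9.19%, interval -23.3% to 7.57%). Both were lower in L192P within every pair of the same number, and in Ebp the libraries of replicate 3 lay close together. Cyp51, the lanosterol demethylase, had 1213 ± 156.7 and 1250 ± 129.5 (-3.14%, interval -16.1% to 11.9%). Sc5d, a sterol desaturase, had 1279 ± 106.8 and 1343 ± 138.1 (-4.71%, interval -15.9% to 7.91%). Dhcr7, which makes cholesterol from its direct precursor, had 748.9 ± 68.2 and 751.8 ± 67.2 (-0.370%, interval -12.4% to 13.4%). Nsdhl, a sterol dehydrogenase on chromosome X, had 532.7 ± 73.9 and 521.6 ± 30.9 (1.99%, interval -11.8% to 17.9%). Tm7sf2, a sterol reductase, had 365.2 ± 20.9 and 362.4 ± 11.0 (0.862%, interval -11.3% to 14.7%). Exons of Akap9 on the opposite strand overlap 21.1% of the exon bases of Cyp51, and exons of Vps51 on the same strand overlap 10.8% of those of Tm7sf2. For Mvd and Hmgcs1, non-coding genes on the opposite strand overlap 20.5% and 10.6%.

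The sterol sensors showed no called change either, with 0 of 6 genes and a median log2 fold change of 0.021. Srebf2, the transcription factor that drives the synthesis genes, had 4820, 5242, 5304 and 5244 normalized counts in L192P and 4754, 5668, 5458 and 5818 in WT. As in Hmgcs1, replicate 1 was the lowest library of both genotypes, and the other 3 WT libraries lay above the L192P libraries. The difference was -5.03% (interval -13.9% to 4.75%), and without replicate 1 of both genotypes the log2 fold change was -0.10 (DESeq2 adjusted p = 0.415). Srebf1, its relative that acts more on fatty acid genes, had 1063 ± 139.6 and 1046 ± 112.1 (1.57%, interval -12.2% to 17.6%). Scap, which escorts both factors to the Golgi, had 1684 ± 77.3 and 1703 ± 91.3 (-1.25%, interval -9.86% to 8.18%).

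Insig1 and Insig2 encode the proteins that keep SCAP in the endoplasmic reticulum when sterols are plentiful. Insig1, itself a target of the sterol-regulated factors, stood at 1932 ± 206.0 and 1904 ± 187.2 normalized counts in L192P and WT (1.35%, interval -10.7% to 15.1%). Insig2 had 1490 ± 119.4 and 1441 ± 40.3 (3.46%, interval -6.27% to 14.2%). Stard4, a soluble carrier of sterols between membranes, had 1134, 1028, 914.3 and 903.2 in L192P and 900.6, 921.3, 862.5 and 929.5 in WT. Its L192P replicates 1 and 2 lay above every WT library, and the other L192P libraries lay within the WT range. The difference was 10.2% (interval -2.07% to 24.0%), with an adjusted p of 0.678 by DESeq2.

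Among turnover and efflux genes, 0 of 6 were called. Cyp46a1 had 5373, 5380, 4941 and 5360 normalized counts in L192P and 5079, 5869, 5172 and 5749 in WT, and the groups overlapped (-3.75%, interval -12.0% to 5.32%). Nr1h2 (GRCm39, chr7:44199036-44203406, minus strand), which encodes the sterol-activated nuclear receptor LXR beta, had the lowest adjusted p of the 30 genes. Its values were 1020, 1211, 1117 and 1130 in L192P and 1151, 1391, 1268 and 1237 in WT. Each L192P library lay below the WT library of its number, and L192P replicate 2 lay above WT replicate 1, so the groups overlapped. The difference was -11.5% (interval -20.9% to -0.929%), with an unadjusted p of 0.0338 and an adjusted p of 0.450, both by DESeq2. It was the one gene of the 30 with an unadjusted p under 0.05, where 9.44% of all tested genes had one. With the replicate block, the unadjusted p was under 0.05 for Nr1h2 and Msmo1, and the adjusted p of Nr1h2 was 0.167 by DESeq2.

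Nr1h3, which encodes LXR alpha, was scarce in the cortex: 69.1, 75.1, 65.7 and 70.7 normalized counts in L192P and 74.7, 74.6, 86.9 and 53.9 in WT. The L192P libraries lay within the range of the WT libraries, and the interval of the difference ran from -26.9% to 27.1%. Abca1 (GRCm39, chr4:53030787-53159900, minus strand), which loads cholesterol onto lipoproteins and is a known LXR target, had 569.9, 623.6, 752.9 and 630.1 in L192P and 542.7, 532.7, 648.5 and 604.1 in WT. Every L192P library lay above the WT library of its number, while the groups overlapped. The difference was 10.8% (interval -3.98% to 28.0%), with an adjusted p of 0.760 by DESeq2. Abcg1, another exporter under LXR control, had 1965 ± 105.0 and 1943 ± 149.1 (1.14%, interval -8.58% to 11.9%). Mylip, a ubiquitin ligase that LXR induces and that removes lipoprotein receptors, had 433.4 ± 71.3 and 411.4 ± 54.8 (5.48%, interval -11.8% to 26.1%).

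Libraries of the same replicate number deviated together, so the differences were also read within pairs. Lower values in L192P in all 4 pairs were found for 6 genes: Mvk, Fdft1, Msmo1, Hsd17b7, Ebp and Nr1h2. Among all tested genes 11.4% were lower in all 4 pairs, and 12.3% were higher in all 4, which of the 30 genes held for Abca1. In the DESeq2 fit with the replicate number as a block, 0 of the 28 genes given an adjusted p were called, where 533 of 12536 tested genes (4.25%) were. Fdps and Nr1h3 were given no adjusted p in that fit.

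**Figure D3:**
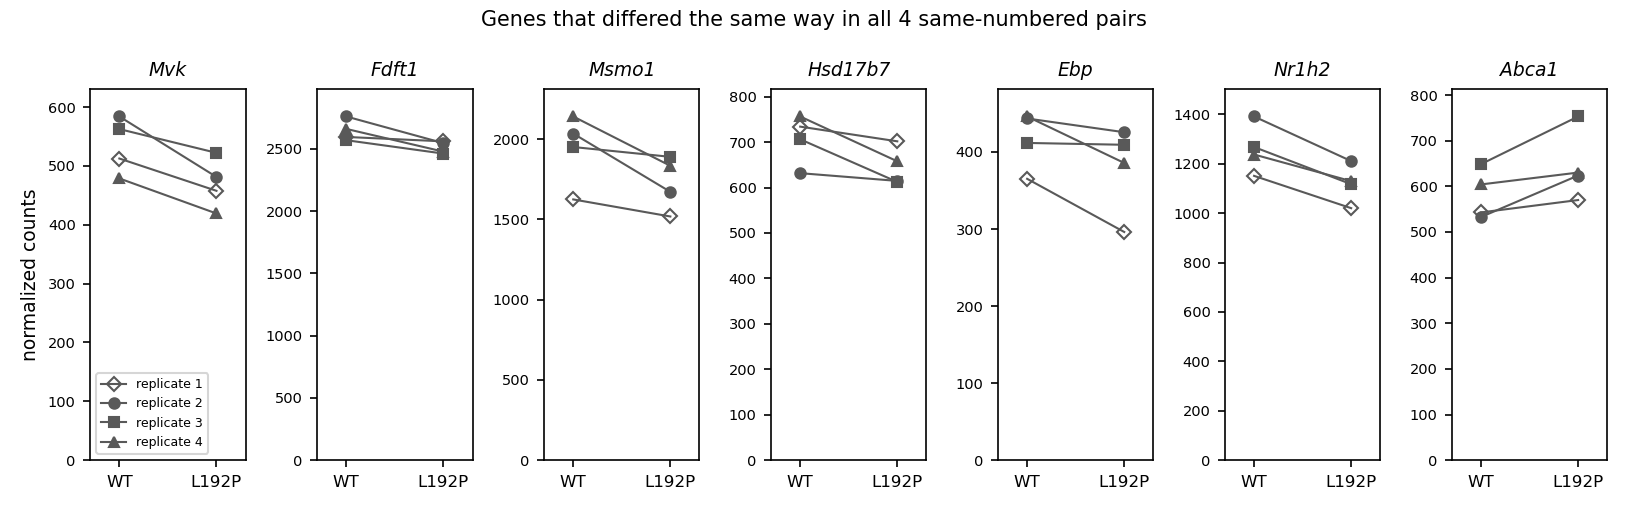
Normalized counts in WT (left) and L192P (right) for the 7 genes that differed the same way in all 4 same-numbered pairs, with lines joining libraries of the same replicate number and open diamonds for replicate 1. The lines of Mvk, Fdft1, Msmo1, Hsd17b7, Ebp and Nr1h2 slope down and those of Abca1 slope up, while the libraries of both genotypes overlap for each gene but Fdft1.

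Several of these genes were low in replicate 1 of both genotypes. Replicate 1 was the lowest library of both genotypes for 10 of the 30 genes (33.3%, all tested genes 14.2%): Hmgcs1, Mvd, Cyp51, Msmo1, Ebp, Dhcr7, Srebf2, Srebf1, Nr1h2 and Abcg1. It was the highest of both for Fdps, Tm7sf2 and Insig2. In Cyp51, replicate 1 had 981.0 (L192P) and 1095 (WT) normalized counts, where every other library had between 1243 and 1412. Glial markers moved with it. The summed normalized counts of 10 oligodendrocyte markers were 96382 in L192P replicate 1 and 98220 in WT replicate 1, and between 109143 and 138933 in the other 6 libraries. Those of 8 astrocyte markers were 35968 and 41366, against 52458 to 58304. Their part in the lower sterol transcripts of replicate 1 was not tested. Replicate 1 is present once in each genotype. With both of its libraries left out, 0 of the 30 genes were called, and the median log2 fold change was -0.020. Fdps was given no adjusted p in that fit, so it could not be called.

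**Figure D4:**
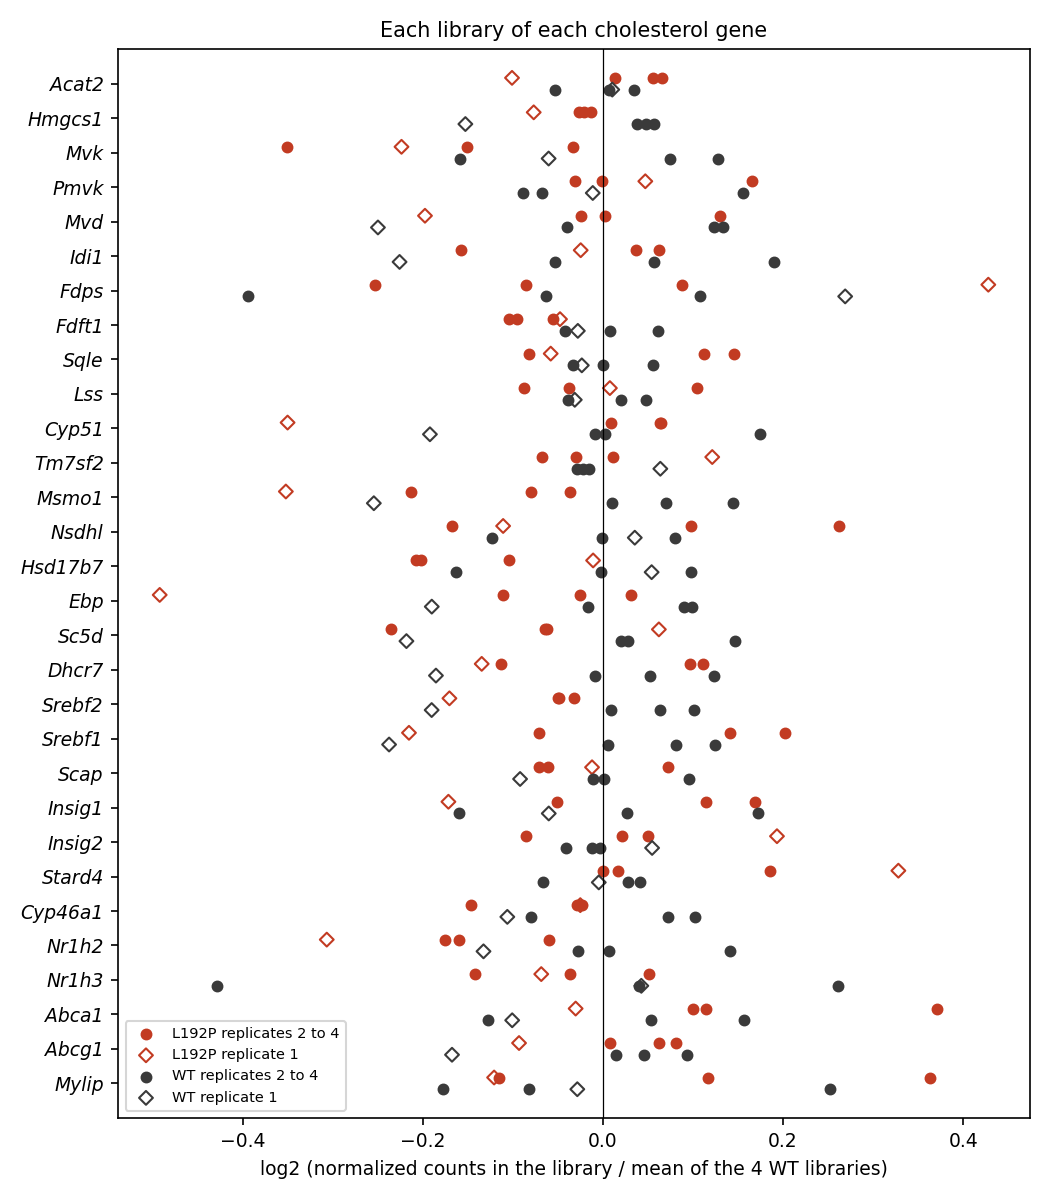
Each library of each of the 30 genes, as the log2 ratio of its normalized counts to the mean of the 4 WT libraries (red, L192P; dark grey, WT; open diamonds, replicate 1). For Hmgcs1, Cyp51, Srebf2 and 7 more genes the open diamonds of both genotypes lie to the left of the other points of their own genotype.

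Cell type markers were read beside the genotype comparison as well, in the same DESeq2 fit. The oligodendrocyte sums ranged from 96382 to 134230 in L192P and from 98220 to 138933 in WT, the astrocyte sums from 35968 to 55390 and from 41366 to 58304, and the sums of 6 microglia markers from 3693 to 6758 and from 3896 to 5053. The sums of 5 oligodendrocyte precursor markers ranged from 3758 to 5689 in L192P and from 3633 to 5621 in WT, and those of 6 neuron markers from 169784 to 198518 and from 182641 to 199182. The cortical excitatory markers Slc17a7, Tbr1 and Neurod6 summed to between 33021 and 37519 in L192P and between 37869 and 39326 in WT. These sums did not overlap between genotypes, but the values of each marker taken alone did. Slc17a7 made up most of the sum, with 28887 to 32580 in L192P and 32160 to 34033 in WT. All 3 estimates lay below 0 (median log2 fold change -0.24). Taken singly, 5.97% of all tested genes had groups that lay apart, and no such share was computed for sums of 3 genes. Endothelial sums (4 markers) ranged from 646.5 to 1505 and from 880.6 to 1465, meningeal fibroblast sums (4 markers) from 638.1 to 1185 and from 544.4 to 816.3, and erythroid sums (4 markers) from 1320 to 3145 and from 1500 to 2260. No marker of these lists was at 0 in all libraries, and none was called in this fit. Estimates lay above 0 for 1 of 10 oligodendrocyte, 1 of 5 precursor, 3 of 8 astrocyte and 2 of 6 neuron markers. They lay above 0 for 5 of 6 microglia, 3 of 4 endothelial, 4 of 4 meningeal and 4 of 4 erythroid markers. Of all 18627 tested genes, 9418 lay above 0. An unadjusted p under 0.05 was found for 2 microglia, 2 neuron, 2 of these 3 cortical excitatory and 2 meningeal markers, and edgeR called none. Slc17a7 is counted in both the neuron and the cortical excitatory list. Of all tested genes, 9.44% had an unadjusted p under 0.05. With the replicate block, Cx3cr1 (microglia, log2 fold change 0.30), Slc17a7 (-0.13), Tbr1 (-0.25), Neurod6 (-0.31) and Col1a2 (meningeal, 0.54) passed, as did 4.25% of all genes tested in that fit. Without replicate 1 of both genotypes, DESeq2 called Cx3cr1 (log2 fold change 0.42), P2ry12 (microglia, 0.38), Slc17a7 (-0.18) and Col1a2 (0.69) among the reported markers. It also called Lum (meningeal, 1.63) and the erythroid Hba-a1 (0.55) and Hbb-bs (0.74). Over all genes, that fit called 500. The part of these markers in the values of the cholesterol genes was not tested.

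The wider sterol and lipid genes gave no call in the same fit. Of 37 further genes of isoprenoid and sterol handling, Ch25h was given no adjusted p and 0 of the other 36 were called (median log2 fold change -0.021, 11 above 0 and 25 below). Of these 36, 6 had an unadjusted p under 0.05 by DESeq2, where 9.44% of all tested genes had one, and edgeR called 0. Their sums were between 61306 and 63374 normalized counts in L192P and between 60914 and 62887 in WT. Of 15 fatty acid synthesis genes under control of the same transcription factors, 0 were called (median -0.037, 7 above and 8 below), 1 had an unadjusted p under 0.05 and edgeR called 0. Replicate 1 was the lowest library of both genotypes for 12 of these 15. The 30 cholesterol genes together summed to between 41984 and 44346 normalized counts in L192P and between 41160 and 46489 in WT.

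The absence of calls among the 30 genes held in each of the 14 alternative settings. By edgeR 0 of the 30 were called and 1 had an unadjusted p under 0.05. The median standard error of the log2 fold change was 0.093 for the 30 genes and 0.13 for all tested genes. Estimated differences of -12.3% for Mvk (DESeq2 adjusted p = 0.567) and 10.8% for Abca1 (0.760) were not called. With 4 libraries per genotype, a difference of about this size in a gene of the 30 could therefore be missed.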

How the data were processed

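The authors prepared stranded mRNA libraries of mouse cortex, aligned the reads with STAR 2.7.9a to GRCm39, assigned them to genes with featureCounts 1.5.1 (versions from the submitters' processing notes) and deposited raw counts per gene and library; the strand setting and the annotation release are not given in the sources used here. Their normalized table was not used here.

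Counts were fitted with DESeq2 1.42.0 in R 4.3.3 (genotype as the only term; tool and threshold as in the study's methods, which give no design formula), and genes with a Benjamini-Hochberg adjusted p under 0.05 over all genes were called, with no minimum fold change. Independent filtering set 14037 genes aside and the Cook filter 12. Normalized counts are counts divided by size factors. Intervals are Wald 95% intervals. With depths of 20396357 to 43575900 counts, genes with few counts have wide intervals. All 30 genes were named, and genes of further lipid lists were to be named only if called. The members and lists were chosen with earlier results of these data known, and the counts of pairs, of groups that do not overlap, of unadjusted p-values and of narrow intervals were added after seeing the data. Groups came from the labelled genotype. Libraries of 1 genotype differed by a chi-square per degree of freedom of at least 5.52, more than repeated sequencing of 1 library would give. Each was counted as a replicate, but this value does not show that they came from separate animals. Deviations from the group mean over 13422 genes correlated between same-numbered libraries at 0.63, 0.38, 0.23 and 0.33, and between others at -0.375 to 0.144, so the numbers were treated as pairs. Alternatives were edgeR 4.0.16, total-count size factors, a minimum of 10 counts in at least 4 libraries, no independent filtering, the replicate block, and libraries left out. The cortical excitatory list is given for 3 markers, a choice made after seeing the data; 1 more is not reported here. The programs were tested on simulated data. Exons, overlaps and 3′ UTRs came from GENCODE M39, which held 98.8% of the gene identifiers.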

Additional observations from a re-analysis of the deposited data

Results flagged for a closer look

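In 5 of 60 groups of 4 libraries (30 genes, both genotypes), 1 library stood apart from the other 3 by a gap above Dixon's critical share of the group's whole range; chance alone gives about 3 of 60. Hmgcs1 in WT replicate 1 was the lowest, with 5895 normalized counts against 6728 to 6816 in the other 3 (gap 0.904 of the range). Cyp51 in L192P replicate 1 was the lowest, with 981.0 against 1258 to 1308 (0.847). Srebf2 in L192P replicate 1 was the lowest, with 4820 against 5242 to 5304 (0.871). Tm7sf2 in WT replicate 1 was the highest, with 378.8 against 355.2 to 358.7 (0.852). Cyp46a1 in L192P replicate 3 was the lowest, with 4941 against 5360 to 5380 (0.955).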

How the results depend on the processing

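Under all 14 alternatives, 0 of the 30 cholesterol genes were called. Fdps was given no adjusted p without replicate 1 of both genotypes, and Fdps and Nr1h3 were given none with the replicate block. Of 420 log2 fold changes (30 genes, 14 alternatives), 375 kept the direction of the main DESeq2 fit and 45 changed sign; 13 genes never changed sign, and the largest main value among the 17 that did was 0.077. Total-count size factors gave 0.0033 for Mvd, 0.011 for Idi1, 0.022 for Lss, 0.020 for Dhcr7 and 0.0067 for Scap, and moved the median of all tested genes by 0.024. Without replicate 1 of both genotypes, Tm7sf2 was at -0.0084 and Abcg1 at -0.0013. Leaving out 1 library at a time gave log2 fold changes of -0.012 to 0.043 for Acat2, -0.097 to 0.034 for Mvd, -0.082 to 0.053 for Idi1, -0.087 to 0.16 for Fdps, -0.0062 to 0.068 for Sqle, -0.038 to 0.025 for Lss, -0.11 to 0.042 for Cyp51, -0.030 to 0.037 for Tm7sf2, -0.056 to 0.087 for Nsdhl, -0.062 to 0.037 for Dhcr7, -0.050 to 0.094 for Srebf1, -0.049 to 0.016 for Scap, -0.032 to 0.081 for Insig1, -0.0052 to 0.092 for Insig2, -0.16 to 0.037 for Nr1h3, -0.036 to 0.050 for Abcg1 and -0.031 to 0.17 for Mylip. Over all genes, 253 were called (147 higher, 106 lower). The count was 53 by edgeR, 500 without replicate 1 of both genotypes, and between 112 (without WT replicate 4) and 496 (without WT replicate 1) with 1 library left out, with 114 to 157 when L192P replicate 2, 3 or 4 or WT replicate 2 or 3 was the one; the cause was not tested. With the replicate block 533 were called, 200 of them among the 253, and the block changed no call of a cholesterol gene. Total-count size factors gave 168 higher and 64 lower. Depth limits Fdps and Nr1h3 most.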

Other observations

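Pgrmc1, a membrane protein that binds the sterol-demethylating cytochrome, was one of the 37 further sterol genes and was chosen after its values were seen. It had 8926, 8753, 8038 and 9140 normalized counts in L192P and 8578, 7254, 6978 and 7166 in WT. Every L192P library lay above the WT library of its number, and WT replicate 1 lay within the L192P range. Its log2 fold change was 0.22 (SE 0.08, DESeq2 adjusted p = 0.151) without the replicate block and 0.22 (adjusted p = 0.00173) with it. Without replicate 1 of both genotypes it was 0.28, with a DESeq2 adjusted p of 0.000852, and by edgeR the adjusted p was 0.259. Of the 37 further sterol genes, 3 had groups that did not overlap (all tested genes, 5.97%), and they are named here after their values were seen: Soat1, which esterifies cholesterol for storage, Stard3, a sterol carrier of late endosomes, and Mbtps1, a protease that cuts the sterol-regulated transcription factors. All 3 were lower in L192P and none was called, with a log2 fold change of -0.18 for Soat1 (DESeq2 adjusted p = 0.255), -0.19 for Stard3 (0.254) and -0.12 for Mbtps1 (0.517).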
